A study of Rattus norvegicus with 6 samples.

Results

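The platelet-derived growth factor (PDGF) family is formed by the ligand genes Pdgfa, Pdgfb, Pdgfc and Pdgfd and the receptor genes Pdgfra and Pdgfrb, and these 6 genes were chosen by symbol from the deposited tables. A row was found for 5 of them among the 18746 genes of the count table and the 18674 genes of the FPKM table, and all 5 passed the filter on low counts that left 12420 genes to test. Pdgfd had no row and was not analysed here. The libraries came from cells labelled PC12, a line derived from a rat pheochromocytoma, that had received an siRNA targeting NQO1 (siNQO1, 3 libraries) or a nontargeting siRNA (siCtrl, 3 libraries) by transfection and sequenced as polyadenylated RNA. The study's methods describe siRNA duplexes, whereas the labels also name an shRNA and a control plasmid. All cells shared the same medium with serum and the same transfection reagent, 1 siRNA sequence was used against NQO1, and a harvest at 48 h is given for RT-qPCR. The study calls the libraries of a group biological replicates without saying how the cultures were kept apart, and p-values cover the spread between these libraries.

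PDGFs are secreted dimers that bind receptor tyrosine kinases on the cell surface and drive proliferation and migration, above all of mesenchymal cells and of glial precursors. The A and C chains act mainly through the alpha receptor encoded by Pdgfra, the B chain acts through both receptors, and the D chain acts mainly through the beta receptor encoded by Pdgfrb. The A and B chains are cut by furin-like convertases inside the cell, whereas the C and D chains are secreted in a latent form that needs a protease outside it.

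Pdgfa rose most in this family after NQO1 knockdown, by 1.72-fold, and Pdgfrb and Pdgfc rose by 1.37-fold and 1.25-fold. Pdgfb and Pdgfra, the least abundant and the most abundant member in siCtrl, did not pass the test. Thus 3 of the 5 members tested were higher and none was lower at an adjusted p under 0.05 in the quasi-likelihood test of edgeR, against 5.27% of all genes tested that were higher and 7.38% that were lower. No member reached a fold of 2, which 0.435% of all genes tested did together with the adjusted p. The study required both thresholds for its differentially expressed genes, and it names Pdgfa among genes regulated in both expression and splicing. The fold of 1.72 found here for Pdgfa is below that threshold, and the reason for this difference was not tested. In 4 of the 5 members the siNQO1 libraries did not overlap the siCtrl libraries in read counts scaled to library size (CPM), which was so for 34.2% of all genes tested. From a bulk sample, fewer cells of a type and less RNA per cell cannot be told apart.

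Nqo1, the target of the siRNA, averaged 344.8 ± 24.1 FPKM over the siCtrl libraries and 77.9 ± 2.79 FPKM over the siNQO1 libraries (SD, n = 3 each), which follows the labels. Each library held between 28873824 and 39467230 reads assigned to genes. Markers of the labelled cell line were nearly absent. The summed FPKM of the 8 chromaffin markers with a row ran from 0.65 to 0.66 in siCtrl and from 0.47 to 0.54 in siNQO1, with Th, tyrosine hydroxylase, between 0.04 and 0.09 in all libraries, Chga, chromogranin A, between 0.01 and 0.04, and Ddc listed at 0 in 5 libraries. Of the 6 genes listed as markers of oligodendrocyte precursors and Schwann cells, all were tested, and their summed FPKM ran from 428.2 to 491.8 in siCtrl and from 382.6 to 390 in siNQO1, mostly from Sox10 and S100b. Among them S100b, a calcium-binding protein of glia, was lower after knockdown (log2 fold change -0.45). Cspg4, the proteoglycan NG2, which is found on the same precursors and on pericytes, averaged 54.9 ± 4.65 FPKM over the siCtrl libraries and 40.0 ± 1.67 FPKM over the siNQO1 libraries (SD, n = 3 each; log2 fold change -0.44). The lists for fibroblasts, endothelial cells and macrophages stayed under a summed 1.5 FPKM in every library, with 4 of 6, 3 of 5 and 3 of 4 genes having a row, and the pericyte list without Cspg4 held Rgs5, Acta2 and Des at no more than 0.03, 0.23 and 0.71 FPKM. The part of these markers in the results on PDGF genes was not tested. siCtrl replicate 2 stood apart from the other siCtrl libraries, with a correlation of log2 CPM across genes of 0.986 and 0.989 with them and of 0.989 to 0.990 with the siNQO1 libraries, and without it 4200 genes were called in place of 1571.

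The windows before the RefSeq start sites of Pdgfa, which rose, and of Pdgfb, which did not pass, are shown because both starts coincide with the outer end of the gene model, as those of Pdgfc, Pdgfd and Pdgfra do not. Each holds the 250 bases before the start on GRCr8, at chr12:20759116-20759365 on the plus strand for Pdgfa and chr7:113438344-113438593 on the minus strand for Pdgfb, written 5′ to 3′ in the direction of transcription. Capitals mark the GC box, GGGCGG on either strand, a motif bound by SP1. 
Pdgfa: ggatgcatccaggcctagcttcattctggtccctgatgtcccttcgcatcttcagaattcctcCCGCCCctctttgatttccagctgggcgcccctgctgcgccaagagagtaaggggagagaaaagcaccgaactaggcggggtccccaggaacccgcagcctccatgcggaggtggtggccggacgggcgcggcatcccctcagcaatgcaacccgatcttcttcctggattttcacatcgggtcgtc
Pdgfb: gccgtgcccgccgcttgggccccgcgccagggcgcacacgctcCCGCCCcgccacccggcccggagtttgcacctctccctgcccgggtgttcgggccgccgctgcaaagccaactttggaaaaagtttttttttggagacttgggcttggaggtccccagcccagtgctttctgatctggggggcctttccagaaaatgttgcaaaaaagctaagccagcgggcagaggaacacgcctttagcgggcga
Counted back from the start, the GC box begins at -187 in Pdgfa and at -207 in Pdgfb, and 30.5% of the 33469 windows of this length in the table hold at least 1. No match was found in either window to the EGR motif GCGNGGGCG, the AP-1 motif TGANTCA or the STAT motif TTCNNNGAA on either strand, which 4.29%, 6.34% and 7.67% of all windows hold. The GC box can overlap the EGR motif. These letters are a description of the windows and not of binding. GC content was 60.8% in Pdgfa and 63.6% in Pdgfb, against a median of 51.2%.

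Pdgfa encodes the A chain, a ligand of the alpha receptor. It lies on chromosome 12 and is listed as ENSRNOG00000001312. Its level was 29.98, 31.48 and 31.33 FPKM in siCtrl libraries 1, 2 and 3, against 52.81, 52.85 and 52.05 FPKM in siNQO1 libraries 1, 2 and 3. The siNQO1 libraries lay within 1 FPKM of each other and far above each siCtrl library. On the log2 scale Pdgfa differed by 0.78 ± 0.049 (SE; edgeR adjusted p = 0.00017), and its p was number 8 from the smallest among the 12420 genes tested. By an exact permutation test (two-sided) p was 0.10 for Pdgfa and for each other member whose groups did not overlap, and this is the smallest p that 3 libraries against 3 allow. Between 1880 and 4487 reads per library stood behind these values, and the CPM varied by 3.26% within siCtrl and by 1.73% within siNQO1 (coefficient of variation), where counting alone gives 2.13% and 1.58%. Leaving out any 1 library kept the log2 fold change between 0.73 and 0.80, with an adjusted p from edgeR of at most 0.0053. Without siCtrl replicate 2, the library that stood apart, the log2 fold change was 0.78 ± 0.048 (SE; edgeR adjusted p = 8.44e-07). That omission raised the number called among all genes from 1571 to 4200. The lower adjusted p is therefore not particular to Pdgfa, and those of other members without this library carry the same limit.

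**Figure D1:**
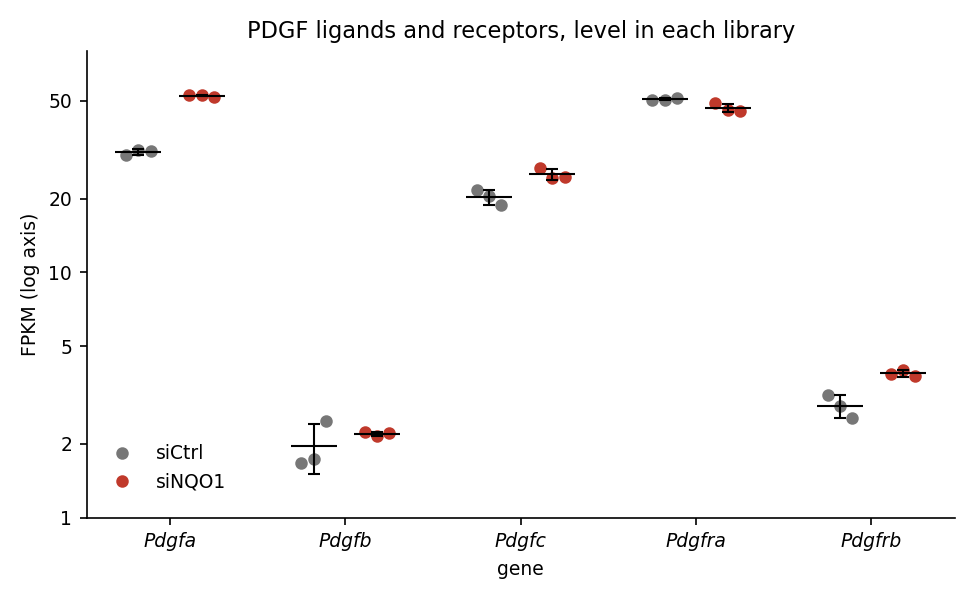
FPKM of the 5 PDGF genes with a row, on a log axis, in siCtrl (gray) and siNQO1 (red) libraries. Points are libraries, and black bars are the mean and SD of 3 libraries. Pdgfa sits between 29.98 and 31.48 in siCtrl and between 52.05 and 52.85 in siNQO1, while the siNQO1 points of Pdgfb fall inside the range of siCtrl.

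Pdgfc encodes the C chain, which is released from its latent form by tissue plasminogen activator and also signals through the alpha receptor. Its level, for the gene on chromosome 2 listed as ENSRNOG00000010695, was 21.6, 20.54 and 18.78 FPKM in siCtrl libraries 1, 2 and 3, against 26.59, 24.32 and 24.53 FPKM in siNQO1 libraries 1, 2 and 3. All siNQO1 libraries were above all siCtrl libraries, with siNQO1 replicate 1 the highest and siCtrl replicate 3 the lowest. On the log2 scale Pdgfc differed by 0.32 ± 0.067 (SE; edgeR adjusted p = 0.0175). It passed without siCtrl replicate 1, and without siCtrl replicate 2 at an adjusted p of 0.00214 from edgeR, but not without siCtrl replicate 3 or any 1 siNQO1 library, where the adjusted p from edgeR ran from 0.0641 to 0.0864 and the log2 fold change from 0.26 to 0.34.

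Pdgfb encodes the B chain, the ligand of both receptors. For this gene, ENSRNOG00000017197 on chromosome 7, the level was 1.67, 1.74 and 2.48 FPKM in siCtrl libraries 1, 2 and 3, against 2.23, 2.15 and 2.21 FPKM in siNQO1 libraries 1, 2 and 3. siCtrl replicate 3 was the highest of all 6 libraries and the other siCtrl libraries were the lowest, so the groups overlapped. The log2 fold change was 0.17 with a 95% interval from -0.22 to 0.56 (adjusted p = 0.547 from edgeR). This interval covers a rise of the size seen in Pdgfc (0.32) and a smaller fall, but not a fall of that size. Only 121 to 220 reads per library were counted, and the CPM of the siCtrl libraries varied by 24.2%, where counting alone gives 7.96%. Without siCtrl replicate 3 the log2 fold change of Pdgfb was 0.39 (adjusted p = 0.119 from edgeR), whereas it was 0.05 and 0.08 without siCtrl replicates 1 and 2 in turn.

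Pdgfra encodes the alpha receptor, which binds the A, B and C chains and marks oligodendrocyte precursors. It is listed as ENSRNOG00000002244 on chromosome 14, with 50.22, 50.6 and 51.15 FPKM in siCtrl libraries 1, 2 and 3, against 48.82, 45.98 and 45.44 FPKM in siNQO1 libraries 1, 2 and 3. Each siNQO1 library lay below each siCtrl library, with siNQO1 replicate 1 the closest to them. The log2 fold change was -0.10 with a 95% interval from -0.22 to 0.015 (adjusted p = 0.229 from edgeR), and at 10847 to 13530 reads per library counting alone gives a variation of 0.90% or less. Without siCtrl replicate 2 the adjusted p from edgeR was 0.0833. The interval does not contain the log2 fold change of Pdgfa, Pdgfc or Pdgfrb.

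Pdgfrb encodes the beta receptor, known for its part in pericytes and vascular smooth muscle. For Pdgfrb, ENSRNOG00000018461 on chromosome 18, the level was 3.16, 2.86 and 2.56 FPKM in siCtrl libraries 1, 2 and 3, against 3.85, 4.0 and 3.77 FPKM in siNQO1 libraries 1, 2 and 3. The siNQO1 libraries were all above the siCtrl libraries, and the siCtrl libraries spread more than the siNQO1 libraries. On the log2 scale Pdgfrb differed by 0.45 ± 0.091 (SE; edgeR adjusted p = 0.0160), and without siCtrl replicate 2 the adjusted p was 0.00249. As for Pdgfc, the call was lost without siCtrl replicate 3 or any 1 siNQO1 library, with an adjusted p from edgeR between 0.0558 and 0.0921 and a log2 fold change between 0.39 and 0.47.

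**Figure D2:**
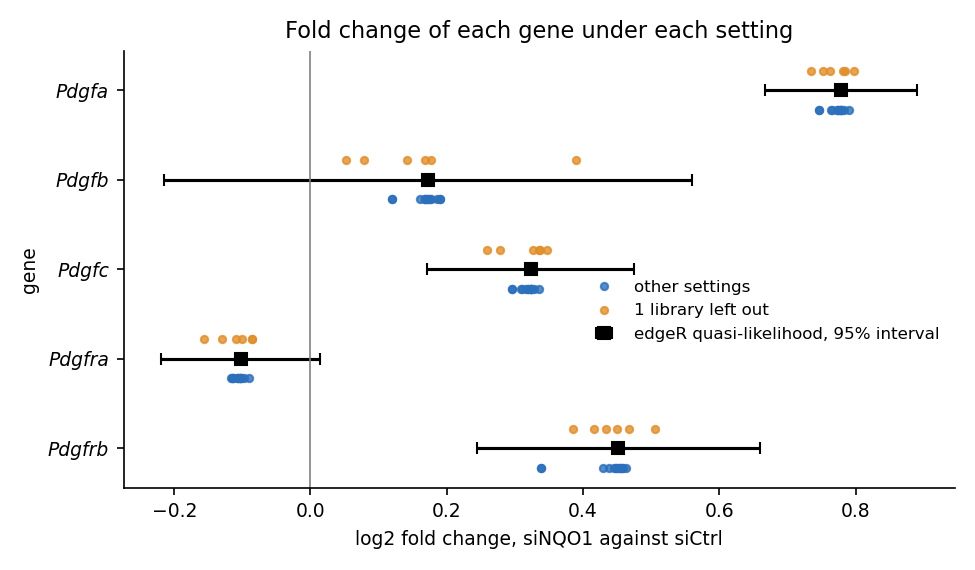
Log2 fold change of each PDGF gene, siNQO1 against siCtrl, with the edgeR quasi-likelihood estimate and its 95% interval in black, the fits without 1 library in orange and the other settings in blue. The interval of Pdgfa runs from 0.67 to 0.89, and those of Pdgfb and Pdgfra cross 0.

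**Figure D3:**
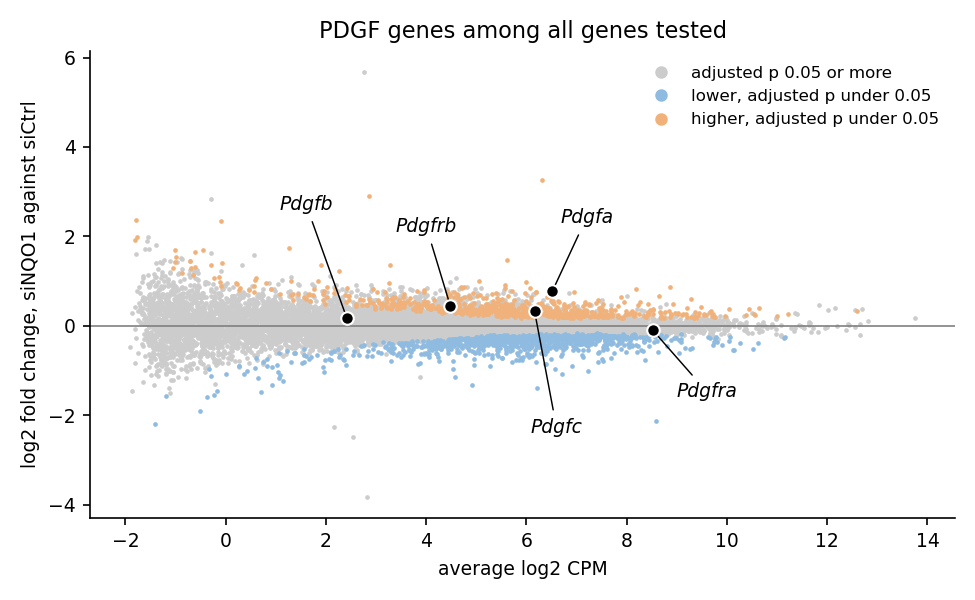
Log2 fold change against average log2 CPM for the 12420 genes tested, with the PDGF genes as black points. Genes at an adjusted p under 0.05 are orange where higher and blue where lower in siNQO1, and Pdgfa lies at an average log2 CPM of 6.52 and a log2 fold change of 0.78.

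The FPKM values are per length and allow the members to be compared with each other. In siCtrl the order was Pdgfra, Pdgfa, Pdgfc, Pdgfrb and Pdgfb, with means of 50.7 ± 0.468, 30.9 ± 0.826, 20.3 ± 1.42, 2.86 ± 0.300 and 1.96 ± 0.449 FPKM (SD, n = 3). No neighbors in this order overlapped in siCtrl, though Pdgfrb at its lowest (2.56) and Pdgfb at its highest (2.48) nearly met. In siNQO1 the order was Pdgfa, Pdgfra, Pdgfc, Pdgfrb and Pdgfb, with means of 52.6 ± 0.451, 46.7 ± 1.82, 25.1 ± 1.25, 3.87 ± 0.117 and 2.20 ± 0.0416 FPKM (SD, n = 3), again with no overlap between neighbors. By FPKM the RNA of Pdgfa therefore passed that of Pdgfra, a comparison that rests on the gene lengths used for FPKM. In CPM, which is not per length, Pdgfra stayed higher in siNQO1, at 341.3 to 373.6 against 113.5 to 117.3 for Pdgfa. Protein was not measured. Divided by the FPKM of Pdgfra, that of Pdgfa gave 0.597, 0.622 and 0.613 for siCtrl libraries 1, 2 and 3, against 1.08, 1.15 and 1.15 for siNQO1 libraries 1, 2 and 3 (exact permutation p = 0.10, two-sided).

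The 3 measured ligands summed to 53.2 ± 0.587 FPKM per siCtrl library and 79.9 ± 1.51 FPKM per siNQO1 library (SD, n = 3 each), a ratio of 1.50 between the means. Most of this difference of 26.7 FPKM was Pdgfa, which differed by 21.6 FPKM, with 4.84 FPKM from Pdgfc and 0.233 FPKM from Pdgfb. The share of Pdgfa in the ligand sum was 56.3% to 59.6% in siCtrl and 64.7% to 66.6% in siNQO1, and that of Pdgfc was 35.7% to 40.6% and 30.7% to 32.6%. By FPKM, Pdgfa was 1.39 to 1.67 times as abundant as Pdgfc in siCtrl and 1.99 to 2.17 times in siNQO1. The RNA of Pdgfa thus rose by more than that of Pdgfc in all siNQO1 libraries. The sum of both receptors was 53.5 ± 0.172 FPKM per siCtrl library and 50.6 ± 1.82 FPKM per siNQO1 library (SD, n = 3 each). Within it Pdgfrb held 5.35% ± 0.577 in siCtrl and 7.66% ± 0.347 in siNQO1 (SD, n = 3), and the ratio of Pdgfra to Pdgfrb was 17.9 ± 2.05 and 12.1 ± 0.593 (SD, n = 3). For each of these sums, shares and ratios the groups did not overlap (exact permutation p = 0.10, two-sided).

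**Figure D4:**
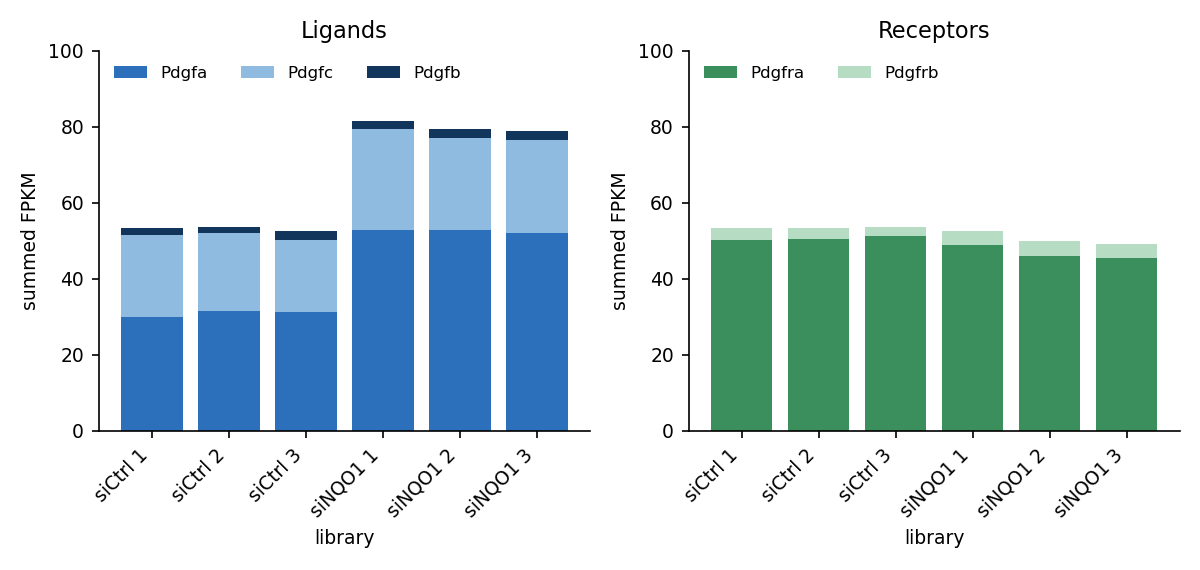
Summed FPKM of the ligands (left) and of the receptors (right) in each library, with each gene as a stacked part of the bar. The ligand bars reach 52.6 to 53.8 in siCtrl and 78.8 to 81.6 in siNQO1, and the receptor bars 53.4 to 53.7 and 49.2 to 52.7.

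Around the family, 100 genes of PDGF signaling and of its closest relatives were listed, of which 95 had a row and 86 were tested. Of these, 4 were higher, 15 were lower and 67 did not pass. In percent, 22.1% were called, against 12.6% of all genes tested, and 17.4% were lower, against 7.38%. Their median log2 fold change was -0.05, and that of all genes tested was 0.01. The count depended on single libraries. It was 16, 43 and 9 without siCtrl replicates 1, 2 and 3, and 11, 7 and 7 without siNQO1 replicates 1, 2 and 3. The number called among all genes moved the same way. It was 1008, 4200 and 749 under these siCtrl omissions and 722, 518 and 612 under the siNQO1 omissions, in place of 1571.

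Among enzymes that activate the ligands, 2 of 5 tested were lower and none was higher (40% called, against 12.6% of all genes tested). Furin, the convertase that cuts the A and B chains, went from 52.4 ± 3.53 to 34.2 ± 1.12 FPKM (SD, n = 3; log2 fold change -0.60, adjusted p = 0.00133 from edgeR). Pcsk6, a related convertase, went from 22.5 ± 1.37 to 8.53 ± 0.410 FPKM (SD, n = 3; log2 fold change -1.39, adjusted p = 4.71e-05 from edgeR). Furin and Pcsk6 thus moved opposite to Pdgfa, and both calls held without any 1 library. Plat, the plasminogen activator that releases the C chain, was at 4.68 ± 0.533 and 3.92 ± 0.321 FPKM (SD, n = 3) and did not pass (adjusted p = 0.226 from edgeR). Of the co-receptors and ligand-binding proteins, Cd44 was higher (log2 fold change 0.20), which did not hold without siCtrl replicate 3 or any 1 siNQO1 library, and 4 of 5 did not pass, Nrp1, Nrp2, Lrp1 and Sparc among them.

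Among adaptors, recruited enzymes and STAT factors, RAS, ERK and AKT genes and negative regulators downstream of the receptors, 8 genes were lower and 1 was higher. In this order of lists, 12.5%, 21.4%, 25% and 14.3% of those tested were called, against 12.6% of all genes tested. The shares of adaptors and negative regulators were thus near that of all genes. Of 8 adaptors tested Shc1, which links receptors to RAS, was lower (log2 fold change -0.28), and Grb2 did not pass (log2 fold change -0.10, adjusted p = 0.321 from edgeR). Of 14 kinases, phosphatases and STAT factors that the receptors recruit, 3 were lower and none was higher, among them the transcription factors Stat3 and Stat5a with log2 fold changes of -0.68 and -0.48. The lipase Plcg1, the kinase Src and the phosphatase Ptpn11 did not pass, with log2 fold changes of 0.08, 0.08 and -0.07. In the RAS, ERK and AKT group 3 of 12 were lower, among them the kinases Mapk3 and Akt2, with log2 fold changes of -0.31 and -0.18. Among negative regulators of the pathway, the ERK phosphatase Dusp4 was lower (log2 fold change -0.28), and 12 of 14 did not pass. The calls of Stat3 and Stat5a held without any 1 library. Those of Shc1, Mapk3, Akt2 and Dusp4 each failed on the omission of some library other than siCtrl replicate 2, with highest adjusted p from edgeR of 0.0967, 0.0697, 0.124 and 0.0797. Akt2 passed when siCtrl replicate 2 was left out and under no other omission.

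Immediate early genes, which PDGF induces within minutes to hours, moved both ways (45.5% called, against 12.6% of all genes tested). Of 11 tested, Junb and Klf4 were higher (log2 fold changes 0.27 and 0.30) and Ier3, Jun and Egr2 were lower (-0.38, -0.25 and -0.40), where Egr2 was named after its value was seen. Fos was at 2.64 ± 0.414 FPKM in siCtrl and 1.97 ± 0.141 in siNQO1 (SD, n = 3) and did not pass (adjusted p = 0.113 from edgeR). Of the factors known to act on PDGF gene promoters, 1 of 8 tested was lower, the EGR corepressor Nab2 (log2 fold change -0.23). This share of 12.5% was near the 12.6% of all genes tested. Egr1 and Sp1 did not pass, with log2 fold changes of -0.41 and 0.09. All 6 tested genes of VEGF ligands and receptors, the nearest relatives of the PDGFs, missed the threshold, Vegfa and Vegfb with log2 fold changes of 0.20 and 0.19 (adjusted p = 0.0838 and 0.101 from edgeR). Among the other class III receptors and their ligands, Csf1, the ligand of the macrophage receptor, was lower (log2 fold change -0.28) and 3 of 4 tested did not pass. Except for Ier3, each call of the preceding sentences failed on the omission of some library other than siCtrl replicate 2, with highest adjusted p from edgeR of 0.0649 for Junb, 0.147 for Klf4, 0.0518 for Jun, 0.148 for Egr2, 0.0793 for Nab2 and 0.0681 for Csf1.

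**Figure D5:**
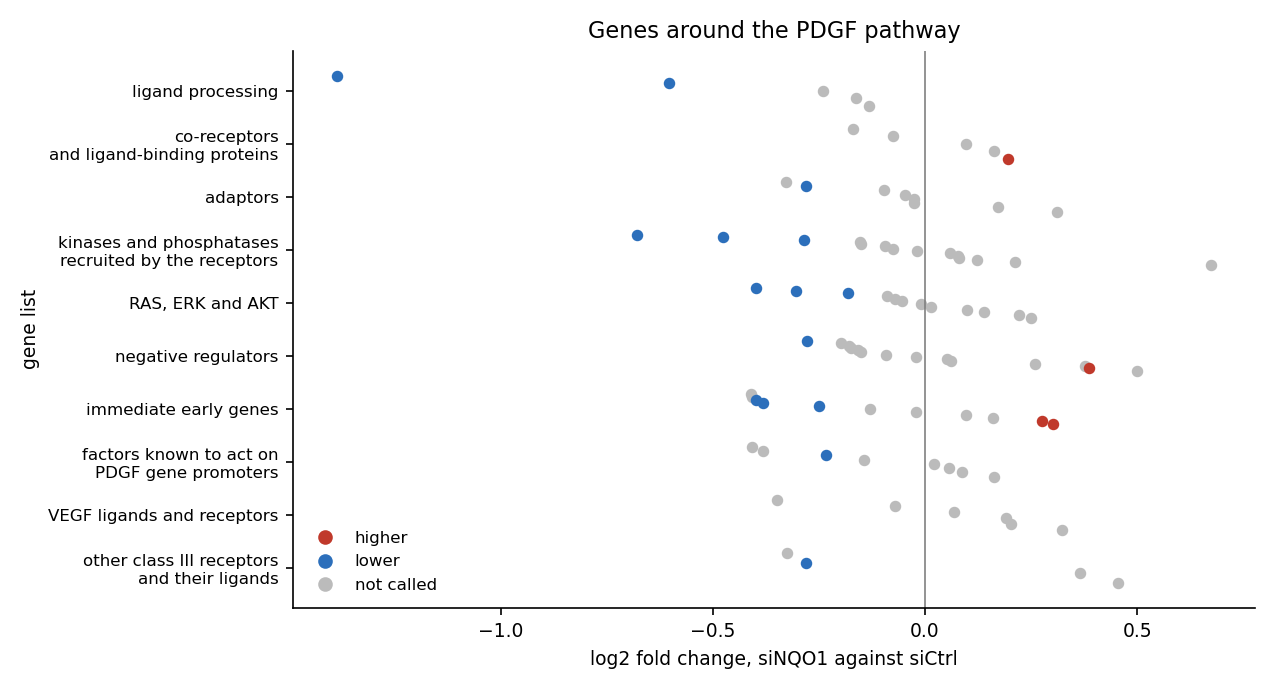
Log2 fold change, siNQO1 against siCtrl, of the tested genes of 10 lists around the PDGF pathway. Each point is a gene, red where higher and blue where lower at an adjusted p under 0.05 in edgeR, and the lowest points are Pcsk6 at -1.39 and Stat3 at -0.68.

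The genes nearest in pattern were found by the root mean square difference of log2 CPM, relative to the siCtrl mean, over the 6 libraries among 11096 other genes. Nearest to Pdgfa were Lpcat2 and Plekha2 (differences of 0.036 and 0.045), with log2 fold changes of 0.74 and 0.73. Nearest to Pdgfc were Ankrd27 and Lactb (0.041 and 0.044), to Pdgfrb Hmga2 and Ndufaf6 (0.045 and 0.053), to Pdgfra Cchcr1 and Rbm45 (0.012 and 0.020), and to Pdgfb Islr and Ptprf (0.061 and 0.072).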

How the data were processed

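Polyadenylated RNA of 3 siCtrl and 3 siNQO1 samples was made into stranded libraries and sequenced as read pairs. The authors trimmed the reads, aligned them with TopHat2 to the RGSC6 genome and counted uniquely mapped reads per gene. The deposited counts are whole numbers and not normalized, and the deposited FPKM were calculated by the authors from the same reads and rounded. No source used here names the counting tool or its strand setting, and overlapping genes may share reads. Besides TopHat2, the submitters' processing notes name bcl2fastq and edgeR.

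Depth was 28873824 to 39467230 reads in genes per library. Counts were tested in R 4.3.3 with edgeR 4.0.16 (filterByExpr, TMM, glmQLFit and glmQLFTest, no block), with Benjamini-Hochberg adjustment over 12420 genes. limma 3.58.1 and DESeq2 1.42.0, 3 other scalings, 2 other filters, pseudocounts of 1 and 0.1 on FPKM, a replicate block and the omission of each library were alternatives. The scripts were tested on simulated data. Named genes were the members, up to 4 called genes per list with the smallest p, 2 of nearest pattern per member, and Nqo1. Genes given as not passing are examples, and some genes that the rule names are not reported here. Members and lists were chosen with earlier results of these data known. Promoter sequences are from RefSeq (GRCr8), which held 5 of the 6 members and not Pdgfrb. Splicing was not analysed here.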

Additional observations from a re-analysis of the deposited data

How the results depend on the processing

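Under the 19 alternatives to the edgeR quasi-likelihood test, all 5 measured PDGF genes kept their direction, and Pdgfa passed in each (log2 fold change 0.73 to 0.80). Pdgfb and Pdgfra passed in none. With limma on log2(FPKM + 1) without a filter, which tests 18674 genes, Pdgfc (0.30, adjusted p = 0.0543 from limma) and Pdgfrb (0.34, adjusted p = 0.0813 from limma) did not pass, and 1 PDGF gene, 12 pathway genes and 990 genes in all were called in place of 3, 19 and 1571. Without 1 library in turn, the log2 fold change of Pdgfc ran from 0.26 to 0.35 and that of Pdgfrb from 0.39 to 0.51. The number of PDGF genes called then ran from 1 to 3, of pathway genes from 7 to 43 and of all genes from 518 to 4200, the highest values without siCtrl replicate 2. The sums of ligands and receptors moved by less than the spread between libraries. After subtraction of group means, libraries with the same number correlated at -0.038, 0.16 and 0.057, and 3 of 6 libraries correlated best with their own number, so the libraries were treated as unpaired. With the replicate block the count of PDGF genes called was 3, that of pathway genes 18 and that of all genes 1350, and Pdgfa, Pdgfc and Pdgfrb had log2 fold changes of 0.78, 0.32 and 0.46. Across scalings the median over all genes lay between 0.0042 and 0.022 on the log2 scale. The depth limits Pdgfb most, at 121 to 220 reads per library.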
